A study of Homo sapiens with 8 samples.

Results

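The core spliceosome components described here are the proteins that sit on the small nuclear RNAs, together with the factors that mark the branch point and the 3′ splice site. Members were matched by gene symbol: SF1, the SF3A, SF3B, PRPF, SNRNP, SNRP, U2AF and LSM families, and U2SURP. These families were chosen with earlier results of these data known. The choice found 55 genes, of which 48 had a gene-level value annotated to 1 symbol, among 14220 such genes in the whole series. At the exon level the members held 808 of the 261273 probesets annotated to 1 symbol. The cells were MDA-MB-231, an established line from a triple-negative breast cancer (one without hormone receptors or HER2 amplification). Their RNA was hybridised to Affymetrix Human Exon 1.0 ST arrays, on which most exons have a probeset of their own. In the knockdown cultures a lentivirus expressed a short hairpin RNA (shRNA) against integrin α3 (ITGA3), a laminin receptor subunit. Control cultures carried a control shRNA from the same kind of vector, so both groups were transduced and stably expressed a hairpin. Each group had 2 arrays, called biological replicates in the series description, and the same 4 arrays were summarised at the gene and at the exon level.

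The spliceosome removes introns from pre-mRNA. The U1 particle (snRNP) binds the 5′ splice site, SF1 and the U2AF heterodimer recognise the branch point, the polypyrimidine tract and the 3′ splice site, and the U2 particle with its SF3A and SF3B complexes then takes over the branch point. The U4/U6.U5 tri-snRNP joins next, and its helicase and PRPF8 core help to build the catalytic centre. Sm proteins form a ring on most of the snRNAs, and LSM proteins form a related ring on U6. A separate minor spliceosome, with U11 and U12, removes a rare class of introns.

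The hairpin's target was checked first. ITGA3 read 619 and 644 PLIER intensity units on the α3 shRNA arrays, against 3480 and 3529 on the control arrays. PLIER is the model that the depositors used to summarise probes into 1 linear intensity per gene or probeset. The difference was -2.44 on the log2(intensity + 16) scale, the scale of every difference given here (SE 0.07, limma, Benjamini-Hochberg adjusted p = 8.04e-05). No second α3 hairpin and no rescue is labelled, and the arrays measure whole populations, in which fewer cells expressing a gene and less RNA per cell cannot be told apart. All 6 markers of a mesenchymal, basal line (VIM, CD44, CAV1, MSN, EGFR and AXL) were above the brightness filter. Of these EGFR was called higher (0.66, adjusted p = 0.00449) and AXL lower (-0.52, adjusted p = 0.00691), and their summed intensity was 18912 to 19305 on the α3 shRNA arrays, against 21825 to 22225 on the controls. The estrogen and progesterone receptor genes ESR1 and PGR were below the brightness filter. Of 9 luminal epithelial markers 6 were tested, with 1 called higher (KRT18) and 1 lower (ERBB2). The summed intensity of all 9 was 10400 to 11344 on the α3 shRNA arrays, against 9477 to 9658 on the controls. Most of that sum came from KRT18 and KRT8. CDH1, which encodes E-cadherin, read 177 and 168 on α3 shRNA arrays, against 25.4 and 28.8 on controls, and was left out by the filter on mean brightness. Of the leukocyte markers, PTPRC and HBB were below the filter, while CD3E, CD14 and CD68 passed it. CD68 was called lower, at 1534 and 1450 on α3 shRNA arrays, against 1871 and 1808 on controls (-0.30, adjusted p = 0.0374), and made up most of the list's summed intensity. That summed intensity was 1889 to 1896 on α3 shRNA arrays, against 2168 to 2267 on controls. The part of these markers in the results was not tested.

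Promoter letters are shown for the members with the largest called differences in each direction at the gene level, SF3B2 and PRPF4B higher and U2AF1L4 and SF3B4 lower with α3 shRNA. Each sequence holds the 250 bases before the annotated start, 5′ to 3′ on the gene's own strand, from RefSeq on GRCh38.p14. Capitals mark matches on either strand to CCGGAAG (an extended sequence bound by ETS factors, not their shorter core), CCAAT (NF-Y) and TATAAA (the TATA box). The regions are SF3B2 at chr11:66052114-66052363 (plus strand), PRPF4B at chr6:4021050-4021299 (plus strand), U2AF1L4 at chr19:35745419-35745668 (minus strand) and SF3B4 at chr1:149927804-149928053 (minus strand).
SF3B2: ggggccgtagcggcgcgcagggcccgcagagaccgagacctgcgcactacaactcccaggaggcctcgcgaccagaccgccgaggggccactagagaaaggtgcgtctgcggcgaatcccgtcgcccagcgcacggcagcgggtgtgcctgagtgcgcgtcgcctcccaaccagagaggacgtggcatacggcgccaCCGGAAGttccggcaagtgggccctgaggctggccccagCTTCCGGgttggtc
PRPF4B: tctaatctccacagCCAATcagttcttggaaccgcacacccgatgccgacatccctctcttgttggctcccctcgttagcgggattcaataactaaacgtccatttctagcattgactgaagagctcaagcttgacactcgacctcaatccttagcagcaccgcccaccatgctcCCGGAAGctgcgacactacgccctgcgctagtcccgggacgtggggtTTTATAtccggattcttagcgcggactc
U2AF1L4: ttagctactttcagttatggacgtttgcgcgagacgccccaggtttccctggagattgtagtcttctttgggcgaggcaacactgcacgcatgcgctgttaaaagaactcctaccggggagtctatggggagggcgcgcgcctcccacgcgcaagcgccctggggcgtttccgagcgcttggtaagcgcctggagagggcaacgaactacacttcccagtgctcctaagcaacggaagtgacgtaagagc
SF3B4: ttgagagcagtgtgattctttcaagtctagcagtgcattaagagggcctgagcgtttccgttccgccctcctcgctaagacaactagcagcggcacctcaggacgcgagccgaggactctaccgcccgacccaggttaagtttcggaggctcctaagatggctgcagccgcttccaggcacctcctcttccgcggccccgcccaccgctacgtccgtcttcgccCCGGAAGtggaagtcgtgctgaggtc
The SF3B2 window held 2 ETS matches, PRPF4B and SF3B4 held 1 each, and U2AF1L4 held no match to any of these letters. PRPF4B also held 1 CCAAT and 1 TATAAA match.

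Of the 48 members with a promoter in the RefSeq table, 20 (41.7%) held CCGGAAG in these 250 bases. The share was 8.52% of 35116 promoters, which were not reduced to 1 per gene. It was 15.7% of the 7593 genes that were tested at the gene level and had a promoter in that table. CCAAT occurred in 43.8% of members, against 32% of all promoters and 34.6% of tested genes. For TATAAA the shares were 4.17% of members, against 10.7% and 5.41%. The 3 patterns were counted separately, so that a base may lie in more than 1 match. The median G+C content was 59.8% for members, against 58% for all promoters. These matches describe letters and are no evidence that a factor binds. Among the 8 members called at the gene level, CCGGAAG stood before SF3B2, SF3A2 and PRPF4B, which were higher, and before SF3B4, which was lower. It was not found before LSM3, which was higher, or before U2AF1L4, PRPF31 and SNRPA, which were lower.

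At the gene level the members divided evenly. Of 46 tested members, 4 were called higher with α3 shRNA (SF3B2, PRPF4B, LSM3 and SF3A2) and 4 lower (U2AF1L4, SF3B4, PRPF31 and SNRPA), each 8.7%. Over all 13207 gene-level features tested, 5.99% were called higher and 15.3% lower. The members' median difference was 0.003, with a range of -0.61 to 0.63, and that of all features was -0.055. Both α3 shRNA arrays lay above both controls for 14 members (30.4%, against 22.3% of all features) and below them for 11 (23.9%, against 39.6%). An unadjusted p under 0.05 in limma was reached by 7 members in the upward and 8 in the downward direction. The share of all features at that level was not counted, here or for the later lists. The stricter adjusted threshold was passed by 21.3% of all features. With each array centred on its median, or with quantile normalization, the split was 7 higher and 3 lower. All features then divided into 11.3% higher and 11.4% lower with centred arrays, and 10.2% and 12.7% with quantile normalization. With 2 arrays a group, an exact permutation test of a single gene cannot give a two-sided p below 0.333, so calls rest on limma's spread shared across features. Leaving out either α3 shRNA replicate lost the calls of most or all of the called members, and fewer of all features were called as well. Such a fit leaves 1 array in its group.

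**Figure D1:**
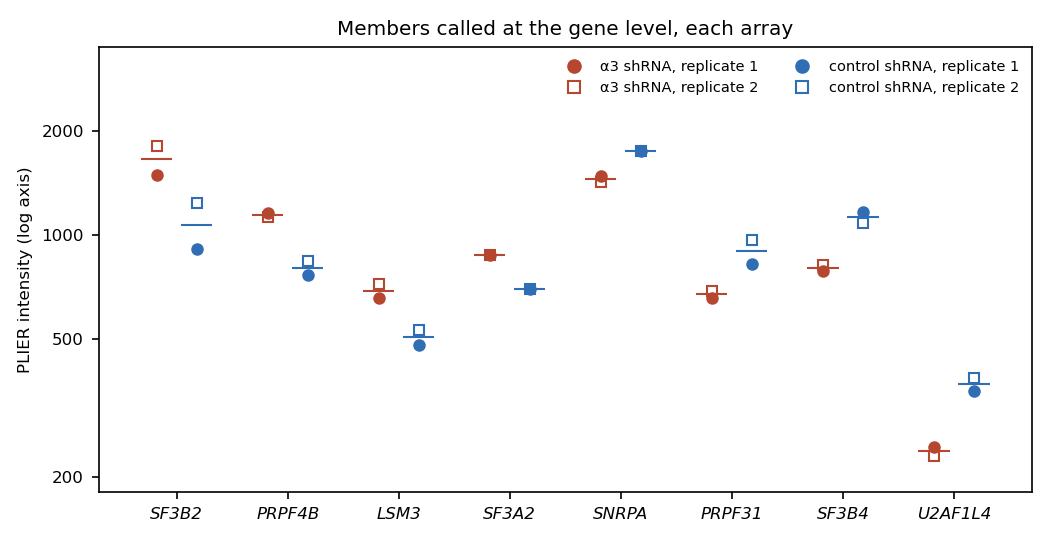
PLIER intensity (log axis) of the 8 core spliceosome members called at the gene level, on each of the 4 arrays, with α3 shRNA in red to the left of control shRNA in blue and a bar at each group mean. For every gene drawn, the 2 α3 shRNA arrays lie on one side of the 2 controls; on the log2 scale the group means differ most for SF3B2 (0.63) among those that were higher and for U2AF1L4 (-0.61) among those that were lower.

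The U2 snRNP held the most called members, 2 higher and 1 lower of 10 tested, with a class median of 0.04. Beside this and the later class counts, 21.3% of all features were called in either direction. Each class had 11 tested members or fewer, and none was tested against that share. SF3B2, a subunit of the SF3B complex, read 1497 and 1814 on the α3 shRNA arrays, against 910 and 1234 on controls. Its log2 difference was 0.63 (95% interval 0.24 to 1.02, adjusted p = 0.0396), and the 2 controls differed from each other by more than the brighter control differed from the dimmer α3 shRNA array. Without α3 shRNA replicate 2 the difference was 0.49 (adjusted p = 0.157), without control replicate 1 it was 0.41 (0.0913), and without control replicate 2 it was 0.85 (0.0211). SF3A2, a subunit of the SF3A complex, read 876 and 875 on α3 shRNA arrays, against 697 and 698 on controls. Here the replicates of each group were nearly equal, and the difference was 0.32 (0.14 to 0.50, adjusted p = 0.0298). Leaving out any 1 array raised its adjusted p to between 0.0531 and 0.187, and on the median of its probesets the difference was 0.20 (adjusted p = 0.362). SF3B4, a subunit that binds pre-mRNA upstream of the branch point, moved in the opposite direction. It read 786 and 817 on α3 shRNA arrays, against 1167 and 1087 on controls, a difference of -0.48 (-0.68 to -0.29, adjusted p = 0.0111). Without α3 shRNA replicate 1 the adjusted p of SF3B4 was 0.07, and without replicate 2 of that group it was 0.0599.

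Subunits of the same U2 complexes thus had called differences of opposite sign, and the other 7 tested members of the class were not called. SNRPB2, which binds U2 RNA together with SNRPA1, read 1057 and 954 on α3 shRNA arrays, against 1193 and 1381 on controls, with the 2 groups apart (-0.35, adjusted p = 0.0570). SF3B1, the largest SF3B subunit and a frequent site of mutation in cancer, read 2365 and 2279 on α3 shRNA arrays, against 2052 and 2081 on controls (0.17, adjusted p = 0.157). SF3A3, another SF3A subunit, read 1118 and 1368 on α3 shRNA arrays, against 942 and 1110 on controls (0.27, adjusted p = 0.186). In all 3 of these the groups did not overlap, as was so for 22.3% (upward) and 39.6% (downward) of all features. SF3A1, SF3B3, SF3B5 and SF3B6 had differences from -0.11 to 0.17. SNRPA1 fell below the brightness filter at the gene level, at 110 and 103 on α3 shRNA arrays, against 53.7 and 91.5 on controls.

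In the U4/U6.U5 tri-snRNP class, which includes the kinase and assembly factors that act with it, 1 member was called higher and 1 lower of 11 tested, and the class median was 0.11. PRPF4B, a kinase that phosphorylates tri-snRNP proteins, read 1155 and 1125 on α3 shRNA arrays, against 765 and 843 on controls. The groups were well apart, with a difference of 0.50 (0.30 to 0.70, adjusted p = 0.0114), and without α3 shRNA replicate 1 or 2 the adjusted p was 0.0688 or 0.0637. PRPF31, a U4/U6 protein needed for tri-snRNP formation and mutated in a form of retinitis pigmentosa, read 657 and 691 on α3 shRNA arrays. Its control arrays read 823 and 970, a difference of -0.40 (-0.65 to -0.15, adjusted p = 0.0387). Without α3 shRNA replicate 1 or 2, or control replicate 2, the adjusted p of PRPF31 was 0.171, 0.131 or 0.0836.

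PRPF4, a U4/U6 protein that pairs with PRPF3, read 1783 and 1800 on α3 shRNA arrays, against 1471 and 1610 on controls (0.22, adjusted p = 0.106). PRPF38B read 717 and 830, against 669 and 659 on controls (0.21, adjusted p = 0.170). PRPF38A, a factor needed for spliceosome activation, read 978 and 1018 on α3 shRNA arrays, against 903 and 883 on controls (0.16, adjusted p = 0.193). None of these 3 passed the test. Their α3 shRNA arrays lay above both controls, as did those of 22.3% of all features. The largest proteins of the particle were not called either: PRPF8, which lines the catalytic centre, differed by -0.07 (95% interval -0.26 to 0.12) and SNRNP200, the helicase that unwinds U4 from U6, by 0.11 (-0.07 to 0.29). PRPF3, PRPF6, SNRNP27 and SNRNP40 ranged from -0.06 to 0.23.

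U1 proteins differed in sign among themselves, with 1 of 4 called lower, none higher and a class median of 0.15. SNRPA, which binds a stem loop of U1 RNA, was called lower at 1484 and 1424 on α3 shRNA arrays, against 1748 and 1750 on controls (-0.26, 95% interval -0.44 to -0.09, adjusted p = 0.0484). This call was the nearest to the threshold of the 8. It was lost when any 1 array was left out (adjusted p from 0.0842 to 0.283) and when arrays were centred on their medians (-0.17, adjusted p = 0.149). SNRNP70, which binds another U1 stem loop, was not called and read 1263 and 1515 on α3 shRNA arrays, against 932 and 1128 on controls (0.43, adjusted p = 0.0627). Without control replicate 2, or with centred arrays, its adjusted p was 0.0435 or 0.0223. PRPF39, an alternative splicing factor related to a yeast U1 protein, read 589 and 501, against 393 and 459 on controls (0.34, adjusted p = 0.0928). SNRPC, the U1 protein at the 5′ splice site, overlapped between groups, at 2991 and 2614 on α3 shRNA arrays and 2835 and 2960 on controls (-0.05).

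Among the proteins of branch point and 3′ splice site recognition, 1 of 4 was called. U2AF1L4, a paralogue of the small U2AF subunit, had the largest downward difference of any tested member. It read 244 and 229 on α3 shRNA arrays, against 354 and 387 on controls (-0.61, 95% interval -0.85 to -0.37, adjusted p = 0.0104). Without α3 shRNA replicate 2 its adjusted p was 0.0784. The general factors of this step overlapped between groups. U2AF2, the large U2AF subunit, read 935 and 1037 on α3 shRNA arrays, against 993 and 1114 on controls (-0.09), and U2AF1, the small subunit, read 505 and 530, against 464 and 526 (0.07). U2AF1 and its near-identical copy U2AF1L5 cannot be told apart by such probes. SF1, which binds the branch point, read 1086 and 1064 on α3 shRNA arrays, against 1044 and 1173 on controls (-0.04).

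Of the 7 tested LSM2 to LSM8 proteins, which bind the 3′ end of U6, only LSM3 was called. LSM3 read 658 and 720 on α3 shRNA arrays, against 481 and 530 on controls, a difference of 0.44 (0.21 to 0.66, adjusted p = 0.0240). This row, transcript cluster 2562115, is numbered between those of SF3B6 and SNRNP200 on chromosome 2, while LSM3 lies on chromosome 3. Other tested LSM3 probesets, such as 2611820, are numbered in another range. Whether the row reads the LSM3 locus or a copy of it was not tested. Without α3 shRNA replicate 1 or 2, or control replicate 1, the adjusted p of LSM3 was 0.0740, 0.175 or 0.0587. Its ring partners were not called, and the class median was -0.04. LSM2 read 243 and 347 on α3 shRNA arrays, against 375 and 408 on controls (-0.41, adjusted p = 0.137), and LSM8 read 326 and 327, against 372 and 393 (-0.22, adjusted p = 0.137). LSM4 read 2082 and 2067 on α3 shRNA arrays, against 2160 and 2192 on controls (-0.07). LSM5, LSM6 and LSM7 overlapped between groups, with differences from -0.04 to 0.11.

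LSM1 replaces LSM8 in the cytoplasmic ring that acts in mRNA decay. It was not called, at 294 and 312 on α3 shRNA arrays, against 352 and 408 on controls (-0.31, adjusted p = 0.0910). LSM10 and LSM11, which belong to the U7 particle for histone mRNA ends, did not pass the test either. LSM10 read 1027 and 969 on α3 shRNA arrays, against 945 and 854 on controls (0.15), and LSM11 read 177 and 168, against 216 and 174 (-0.16). PRPF19, the ubiquitin ligase of the Prp19 complex, read 2151 and 2100 on α3 shRNA arrays, against 1786 and 2082 on controls (0.14). PRPF18, a second-step factor, read 230 and 244, against 240 and 329 (-0.23).

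Neither the Sm ring, with 3 tested members, nor the minor spliceosome class, with 2, had a called member or an unadjusted p under 0.05 in limma. SNRPB, the Sm protein shared by most snRNPs, read 3824 and 3966 on α3 shRNA arrays, against 3699 and 4117 on controls, a difference of -0.003 (95% interval -0.21 to 0.20). SNRPD1 read 570 and 558, against 529 and 658 (-0.06), and SNRPF read 740 and 729, against 662 and 759 (0.05). All 3 overlapped between groups. The 5 tested SNRPF probesets were all positive, from 0.05 to 0.53. On the median of these probesets its difference was 0.36, not called (adjusted p = 0.319 in limma). SNRPN, a neuronal paralogue of SNRPB that is nearly identical to it in its protein, was at most 6.38 on any array and was left out as dim. The U11/U12 proteins SNRNP48 and SNRNP25 differed by 0.03 and -0.05: SNRNP48 read 338 and 323 on α3 shRNA arrays, against 319 and 329 on controls, and SNRNP25 read 415 and 544, against 463 and 527. Several small Sm and LSM genes have processed pseudogenes that probes can also read, and their values are uncertain for that reason.

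**Figure D2:**
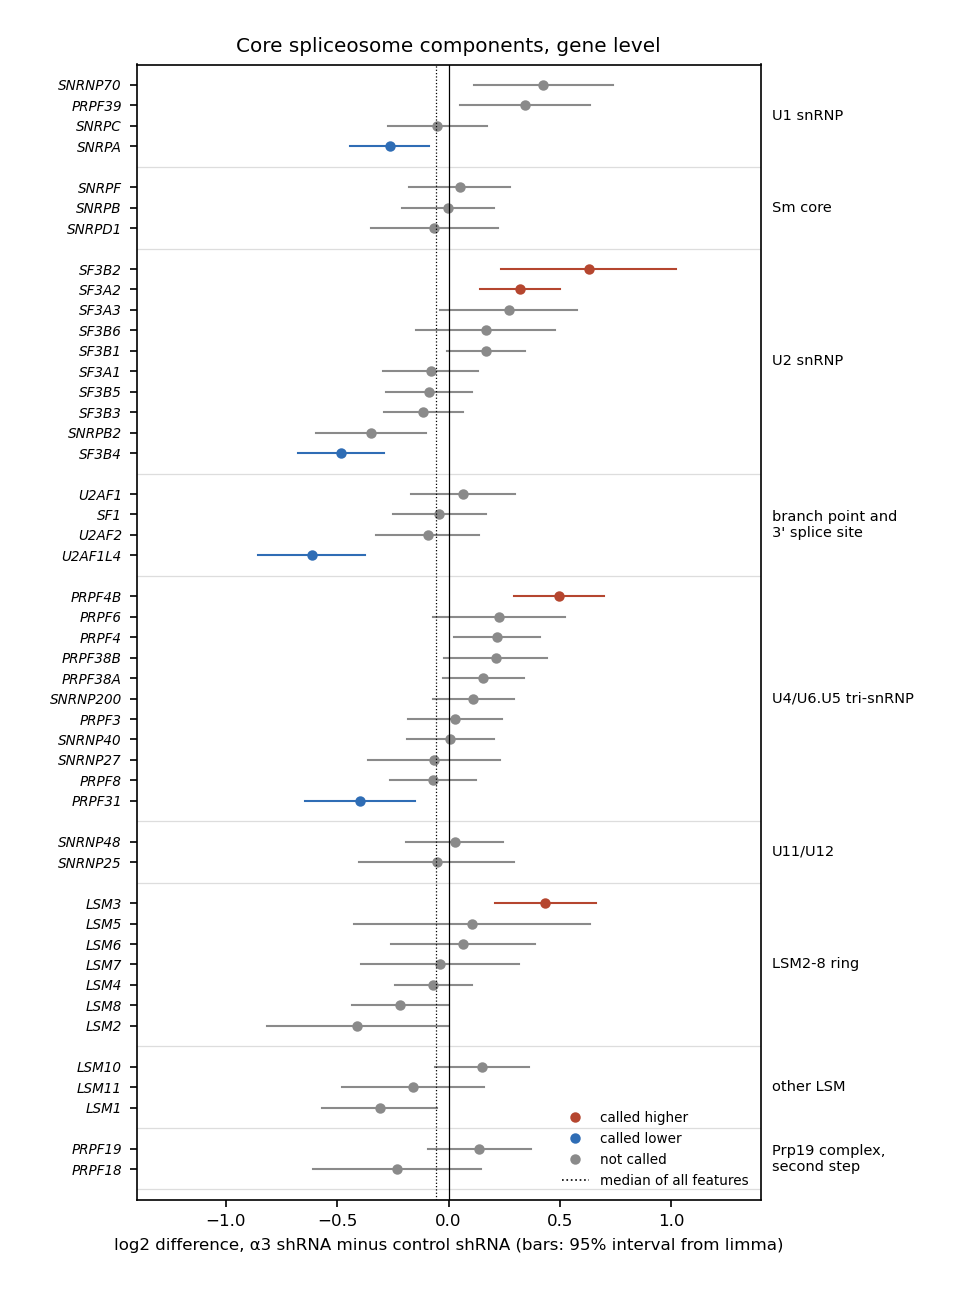
Log2 difference, α3 shRNA minus control shRNA, of each of the 46 tested members at the gene level, grouped by particle; points are limma estimates and bars their 95% intervals from 2 arrays a group. Called members lie on both sides of 0 in the U2 and tri-snRNP classes, and the Sm core and U11/U12 points run from -0.06 to 0.05 (rounded).

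At the exon level the called probesets were mostly higher. Of 726 tested member probesets, 18 (2.48%) were called higher with α3 shRNA and 4 (0.551%) lower. Over all 172398 probesets tested, 1.33% were called higher and 3.25% lower. The members' median was 0.061, against -0.051 over all probesets. Both α3 shRNA arrays lay above both controls for 217 member probesets (29.9%, against 19.4% of all) and below for 126 (17.4%, against 31.3%). With quantile normalization the split was 24 higher and 1 lower, and with centred arrays 32 and 1. Over all probesets the shares were then 1.98% higher and 2.82% lower, and 2.03% and 2.27%. Probesets of 1 gene share its RNA and are not replicates. Without the brightness filter no member probeset was called, where 43 of all 287329 probesets were called higher and 120 lower. Fewer member probesets were also called without α3 shRNA replicate 2 or control replicate 1, as was so for all probesets.

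Of the 18 probesets called higher, 11 belonged to U2 proteins (of 177 tested, class median 0.17) and 5 to the tri-snRNP class, all of these in PRPF4B. SF3B2 had 6 called probesets, and 24 of its 25 tested probesets had a positive difference. The probeset of SF3B2 with the smallest p (3335943) read 2176 and 2758 on α3 shRNA arrays, against 1182 and 1275 on controls (0.99, adjusted p = 0.0101). For PRPF4B all 31 tested probesets were positive, from 0.25 to 1.19. In both genes the differences thus had 1 sign along nearly the whole set of probesets.

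Some members that were not called at the gene level had differences of 1 sign, though of varied size, in all of their tested probesets. SF3A3 had 3 probesets called higher and all 19 positive. The median over its probesets read 1559 and 1628 on α3 shRNA arrays, against 1157 and 1157 on controls (0.46, adjusted p = 0.0367 in limma over the probeset medians of 15106 genes). SNRNP70 had all 13 positive and 1 called, and its probeset median read 1102 and 1349, against 812 and 848 on controls (0.55, adjusted p = 0.0447). PRPF39 had 1 called and all 15 positive, with a median of 585 and 494 on α3 shRNA arrays, against 335 and 406 on controls (0.52, adjusted p = 0.0813). For SNRPA1, dim at the gene level, the 13 tested probesets were all positive and 1 was called. That probeset (3642180) read 2479 and 2369 on α3 shRNA arrays, against 1649 and 1642 on controls (0.55, adjusted p = 0.0360). The SNRPA1 median read 512 and 715 on α3 shRNA arrays, against 305 and 527 on controls, and did not pass (0.57, adjusted p = 0.229), with the 2 groups overlapping.

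Downward probesets were fewer. U2AF1L4 had 2 called lower and all 7 negative. For SF3B4 all 7 were negative and none was called alone, but its probeset median was called (-0.52, adjusted p = 0.0463). SNRPD2, a Sm protein with exon-level values only, had 1 probeset called lower (3865571), at 2818 and 2698 on α3 shRNA arrays, against 4413 and 4840 on controls (-0.74, adjusted p = 0.0101). Of its 9 tested probesets 8 were negative, and its median read 924 and 814 on α3 shRNA arrays, against 1033 and 1205 on controls (-0.36, adjusted p = 0.137). LSM2 had the remaining probeset called lower (2949434), at 801 and 864, against 1279 and 1241 on controls (-0.59, adjusted p = 0.0494). The other genes with exon-level values only were SNRPD3, SNRPE, SNRPG, PRPF40B, SNRNP35 and LSM12, with medians from -0.23 to 0.30, none called. On probeset medians 3 members were called higher (PRPF4B, SF3A3 and SNRNP70) and 1 lower (SF3B4) of 54. The shares over all genes were 2.12% and 5.75%. The other 6 members called at the gene level did not pass on this measure: SF3B2 (adjusted p = 0.0576), LSM3 (0.0708), U2AF1L4 (0.0904), PRPF31 (0.117), SNRPA (0.182) and SF3A2 (0.362).

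**Figure D3:**
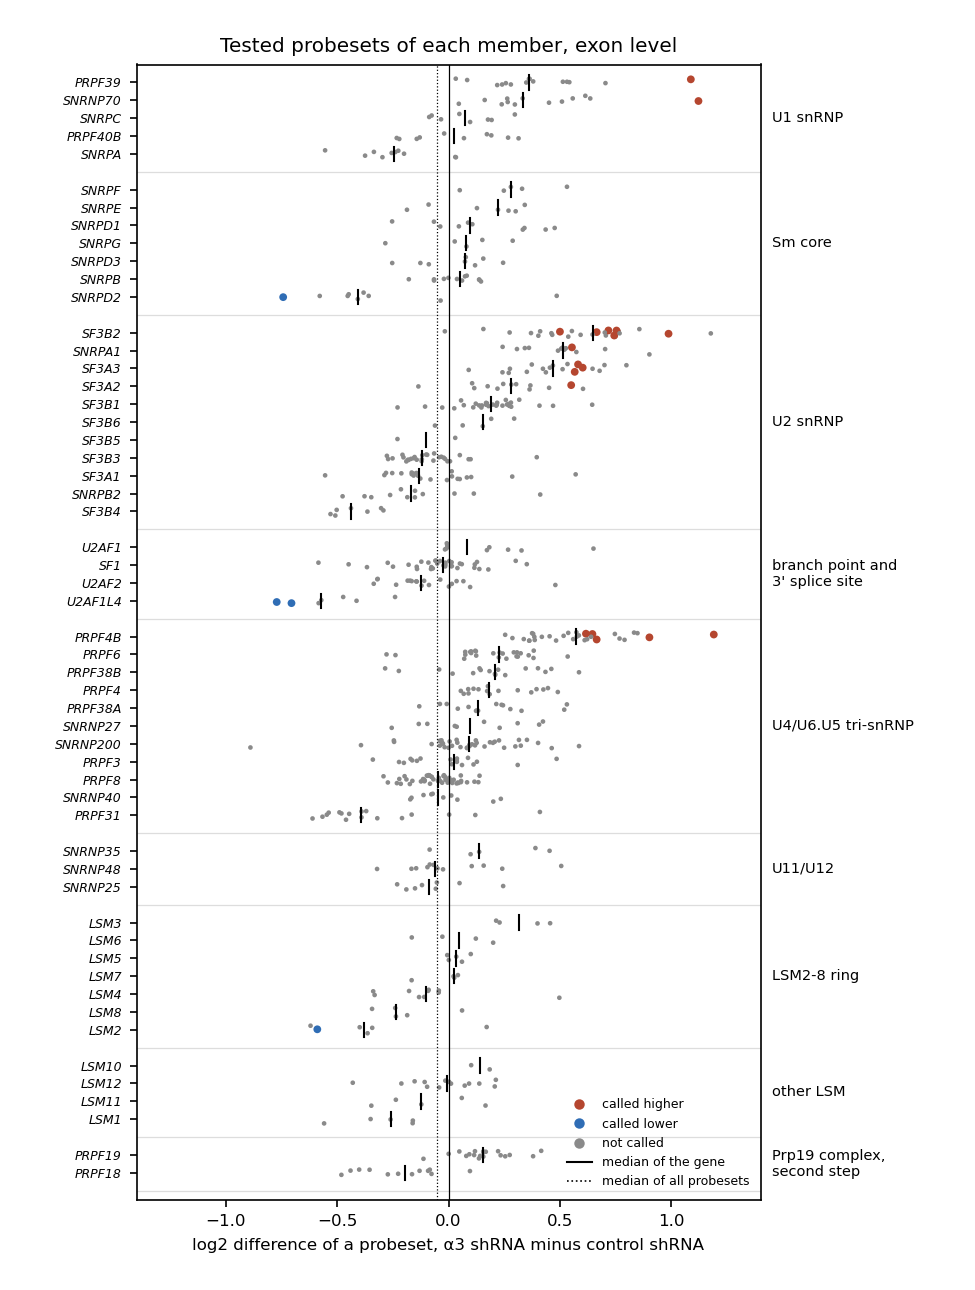
Log2 difference, α3 shRNA minus control shRNA, of each tested probeset (dots) of the members, grouped by particle, with a bar at the median of each gene. SF3B2, SF3A3, SNRPA1 and PRPF4B lie almost wholly to the right of 0 and U2AF1L4 and SF3B4 wholly to the left, while the probesets of PRPF8, SF1 and SNRPB lie on both sides.

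Whether single exons of these genes departed from the rest of their own gene was asked by comparing each probeset with the mean of the other tested probesets of its gene, per array. None of 722 member probesets passed in limma (adjusted p under 0.05), and 40 had an unadjusted p under 0.05. The share of all probesets at that unadjusted level was not counted. Over all 155392 probesets compared, 80 (0.0515%) were called. The smallest p belonged to PRPF31 probeset 3841247, which read 426 and 457 on α3 shRNA arrays, against 311 and 346 on controls. It was higher while the gene as a whole was lower, a departure of 0.78 (SE 0.17, adjusted p = 0.286). LSM4 probeset 3854918 read 903 and 1077 on α3 shRNA arrays, against 694 and 695 on controls (departure 0.65, adjusted p = 0.312).

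SNRNP200 probeset 2565268 went the other way, at 84.9 and 132 on α3 shRNA arrays, against 202 and 218 on controls (departure -0.99, adjusted p = 0.460). This probeset was dim, with 1 array below the filter's mean intensity of 96.2. The median over the gene's probesets was 1948 and 2125 on α3 shRNA arrays, against 1886 and 2028 on controls. With limma's diffSplice, which takes 1 spread for all exons of a gene, this SNRNP200 probeset was the only one called among the members (adjusted p = 0.000717), where 0.376% of all probesets were called. SNRPD2 probeset 3865571, given above, had a departure of -0.47 (adjusted p = 0.478). In each of these 4 probesets the groups did not overlap, as was so for 19.4% (upward) and 31.3% (downward) of all probesets tested.

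Proteins that work with these members, taken from lists chosen with earlier results of these data known, were counted in the same gene-level test. Of 44 tested other spliceosome proteins, 13 (29.5%) were called higher and none lower, with a median of 0.16. The numbers at an unadjusted p under 0.05 in limma were 18 higher and 3 lower, with no count over all features at that level. The 13 were LUC7L, LUC7L2 and LUC7L3 (relatives of a yeast U1 protein), IK, MFAP1, SART1, DDX23 and SART3 (factors of tri-snRNP assembly, recycling or activation), DDX46 and HTATSF1 (partners of the U2 particle), and AQR, CWC27 and DHX16 (factors of the activated spliceosome). LUC7L2 read 1276 and 1477 on α3 shRNA arrays, against 709 and 800 on controls (0.85, adjusted p = 0.00492). IK read 1470 and 1747, against 879 and 979 on controls (0.78, adjusted p = 0.00697), SART3 differed by 0.61 and DDX46 by 0.79. The difference between this share and that of the core members was not tested. Without the filter 5 were called higher in place of 13, where 485 of all 22011 features were called higher. Fewer were also called higher without α3 shRNA replicate 2 or control replicate 1, as was so for all features. Leaving out control replicate 1 also brought a downward call in this list.

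Of the other lists, the factors that assemble snRNPs had 1 of 16 called higher (GEMIN2) and 2 lower (WDR77 and GEMIN7). WDR77, the partner of the methyltransferase PRMT5 that prepares Sm proteins, read 1266 and 1282 on α3 shRNA arrays, against 2050 and 1910 on controls (-0.63, adjusted p = 0.00483). SMN1 and SMN2 are near-identical copies and are uncertain for that reason. Decay partners of LSM1 had 2 of 9 higher (the decapping factors DCP2 and DCP1A) and 1 lower. The lower one was LSM14A, which resembles the LSM family but does not match the member rule, at 1585 and 1464 on α3 shRNA arrays, against 2607 and 2924 on controls (-0.85, adjusted p = 0.00357). Of 6 histone mRNA processing genes, 1 was lower (SYMPK, -0.50, adjusted p = 0.00900), and 2 were lower at an unadjusted p under 0.05. Among 4 other minor spliceosome genes none was called, and none reached an unadjusted p under 0.05 in limma.

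**Figure D4:**
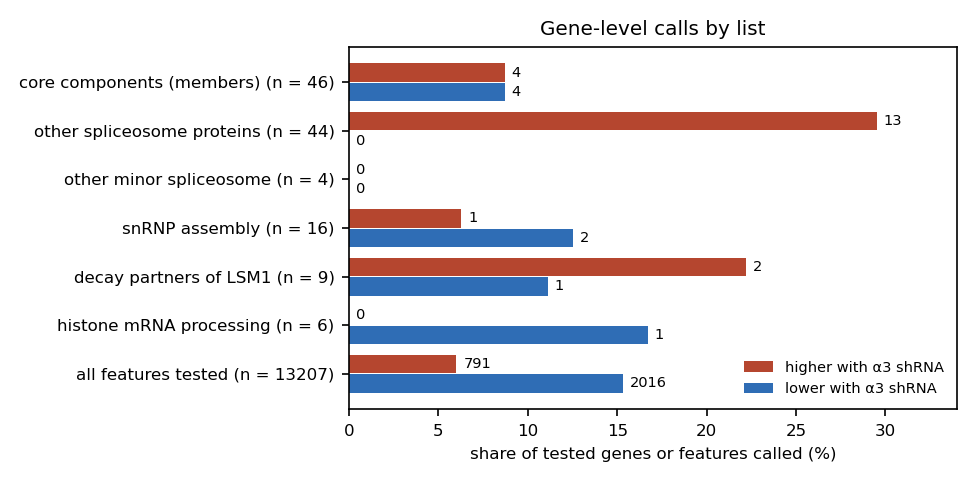
Share (%) of tested genes called higher (red) or lower (blue) with α3 shRNA at the gene level, for the core members, 5 lists of partner genes and all 13207 features, with the number called at each bar. The other spliceosome proteins have 13 genes called higher and 0 lower, the core members 4 in each direction, and all features more calls on the lower side (15.3%) than on the higher (5.99%).

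Position offered another feature that the choice of members did not use. In the RefSeq annotation, 11 members start head to head with a neighbouring gene, counting only pairs in which both genes had tested probesets. The starts could lie up to 1000 bases apart, or the genes overlap by up to 500. On probeset medians, 6 of the 11 pairs had differences of the same sign. LSM3 and XPC, a DNA repair gene whose start lies 216 bases away, differed by 0.43 and 0.41 on that measure, neither called (adjusted p = 0.0708 and 0.150). At the gene level XPC was called higher, at 238 and 254 on α3 shRNA arrays, against 145 and 171 on controls (0.60, adjusted p = 0.0193). LSM3 was called higher there too, from a row that may not read the locus beside XPC. PSENEN, a γ-secretase subunit gene 233 bases from U2AF1L4, had a probeset median of 779 and 966 on α3 shRNA arrays, against 1199 and 1378 on controls. That difference of -0.56 did not pass (adjusted p = 0.0528), and U2AF1L4 gave -0.58 on the same measure. PRPF31 and TFPT, 97 bases apart, did not share a sign (TFPT 0.08). Of the 7 partners with a gene-level value, XPC was called higher and QPCTL, the neighbour of SNRPD2, lower (-0.33, adjusted p = 0.0475), beside 21.3% of all features called in either direction.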

How the data were processed

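RNA of 4 cultures was measured on 1 array each. The deposited values are PLIER intensity values, linear and from Affymetrix Expression Console (core gene and core exon sets), per the labels. The series description also names the Exon Array Computational Tool. The sources used here do not give versions, background correction or a genome build.

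Names came from the supplied platform annotation, updated with RefSeq gene names (GRCh38.p14, also the source of promoters). PRPF4B is listed there as PRP4K. U2SURP had no feature with 1 symbol and is not analysed here. Where a gene had several transcript clusters, the brightest was used.

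Intensities were taken as log2(value + 16), and the lower 40% of features by mean brightness on the arrays were dropped. Groups were compared two-sided with limma 3.58.1 under R 4.3.3, by lmFit with group alone and eBayes with an intensity trend. P-values were adjusted by Benjamini-Hochberg over all features, at a threshold of 0.05. Exon use needed at least 3 tested probesets in a gene. The offset understates changes of dim genes. The steps were tested on simulated data.

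Values are given for called members, for up to 3 others with the smallest p in each class, for the 4 probesets with the smallest exon-use p, and for up to 4 genes of a partner list. The members and lists were chosen with earlier results of these data known. Alternatives were another offset, filters, scalings, a replicate term, single arrays left out, probeset medians and diffSplice. P-values measure only the spread between these cultures, and precision is limited by having 2 arrays in each group. Figures were drawn with matplotlib 3.10.9.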

Additional observations from a re-analysis of the deposited data

How the results depend on the processing

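The 8 members called at the gene level kept their sign in the 12 alternative settings tried, and no called value reversed. Most of these settings could not change the sign. Filters, the intensity trend and the replicate term leave the difference as it is. Since the 2 groups of these members do not overlap, another offset or 1 array left out keeps the sign too. Only the scalings and probeset medians could have reversed it, and several calls were lost, as the counts below show. Among members never called, 20 changed sign in at least 1 setting. An offset of 64, or a filter leaving out the lower 60%, moved no count of calls by more than 1.5 times. Without the filter 1 member was called higher and 2 lower, and 0 probesets in either direction. Of all 22011 features 485 were then higher and 1511 lower, and of all 287329 probesets 43 and 120. Quantile normalization gave 7 members higher, a member median of 0.055 and 1 probeset lower. Centring each array on its median gave 7 members higher, a median of 0.094, 32 probesets higher and 1 lower. Without an intensity trend 2 members were lower, 1 probeset was higher and 0 lower. Probeset medians gave 1 member lower, and diffSplice called 1 probeset for exon use. Leaving out 1 array gave 0 to 4 members higher, 0 to 4 lower, medians of -0.031 to 0.060, 2 to 23 probesets higher and 1 lower each time, with 0 called for exon use. With the replicate block (replicate number as a second term) 7 members were lower, 6 higher, 92 probesets higher, 28 lower and 4 called for exon use, where 20.8% of all features were lower and 10% higher, 6.24% of all probesets higher and 10.6% lower, and 0.936% were called for exon use. The deviations of arrays numbered 1 correlated at 0.290 over genes, with 2 pairs only, so the numbers do not establish a pairing. LSM5, LSM11 and PRPF18 gave no value under the stricter filter. With 1 array left out, fewer of all probesets were called in both directions. Fewer of all features were called too, except upward without control replicate 2. Causes of these changes were not tested.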
